A study of Mus musculus with 6 samples.

Results

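Genes of cholesterol synthesis and transport were examined in dentate gyrus (DG) granule cells after adult loss of Bcl11b/Ctip2. The set was a list of 29 named genes, matched by symbol to the annotation of the array, of 19938 genes measured in all. It holds 18 enzymes that build cholesterol, 5 genes that sense sterols and control these enzymes, 2 receptors for apolipoprotein E, and 4 genes of cholesterol export, transport and turnover. A value was obtained for 28 of the 29, and Acat2 was not analysed here.

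Log2 expression was measured on 6 one-colour Affymetrix arrays, 3 of control and 3 of mutant granule cell layer, cut out of cresyl violet stained cryosections by laser capture microdissection. Mutants carried Bcl11b flox/flox with the tetO-Cre and CaMKIIα-tTA transgenes (tet-off), in which doxycycline keeps Cre silent and its withdrawal switches Cre on in forebrain neurons. Doxycycline was given in the drinking water from embryogenesis to an age of 2 months, and tissue was taken 4 weeks after its withdrawal. The exact genotype of the tet-off controls, and whether each array holds 1 animal, were not stated in the sources used here, so a p-value here covers only how far these samples scatter, which may be technical. As the promoter is active in neurons of the whole forebrain, the mutation was not limited to granule cells.

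The brain makes its own cholesterol, because lipoproteins of the blood do not cross the blood-brain barrier, and turns it over slowly. Acetyl-CoA is converted through mevalonate and squalene to lanosterol, from which a series of enzymes forms cholesterol. When sterols in the endoplasmic reticulum are low, the escort protein Scap carries the transcription factors Srebf1 and Srebf2 to the Golgi, where they are cut, and their released parts enter the nucleus and switch on the synthesis genes. When sterols are high, Insig1 and Insig2 hold Scap back, and liver X receptors (LXR) switch on the exporters Abca1 and Abcg1. In the adult brain astrocytes supply cholesterol to neurons on apolipoprotein E, and neurons dispose of it through the hydroxylase Cyp46a1.

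The promoters of 6 of these genes are shown because each holds at least 1 of 3 motifs known from sterol-controlled genes, and because 5 of these genes had the largest changes of the set. Each runs from 250 bases before to 50 after the start site of the RefSeq gene (build GRCm38.p6). Their positions are chr5:28071162-28071461 (plus strand) for Insig1, chr15:82147019-82147318 (plus strand) for Srebf2, chr13:8885356-8885655 (plus strand) for Idi1, chr8:64733529-64733828 (minus strand) for Msmo1, chr13:119690101-119690400 (plus strand) for Hmgcs1 and chr4:53159846-53160145 (minus strand) for Abca1. Sequences are written 5′ to 3′ on the strand of the gene. Capitals mark the sterol regulatory element (TCACNCCAC, bound by Srebf2), the E-box (CACGTG) and the CCAAT box (CCAAT, bound by the partner factor NF-Y) on either strand.
Insig1: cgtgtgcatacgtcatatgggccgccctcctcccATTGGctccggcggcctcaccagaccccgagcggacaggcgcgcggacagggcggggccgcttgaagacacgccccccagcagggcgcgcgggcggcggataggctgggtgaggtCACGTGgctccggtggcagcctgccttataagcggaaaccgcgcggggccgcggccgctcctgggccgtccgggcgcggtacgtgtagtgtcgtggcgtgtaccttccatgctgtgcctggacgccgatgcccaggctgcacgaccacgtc
Srebf2: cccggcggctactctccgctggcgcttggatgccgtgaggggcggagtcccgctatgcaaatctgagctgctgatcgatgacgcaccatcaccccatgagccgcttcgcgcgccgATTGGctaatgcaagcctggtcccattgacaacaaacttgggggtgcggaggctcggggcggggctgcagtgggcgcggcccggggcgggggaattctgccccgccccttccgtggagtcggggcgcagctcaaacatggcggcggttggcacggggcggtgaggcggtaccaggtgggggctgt
Idi1: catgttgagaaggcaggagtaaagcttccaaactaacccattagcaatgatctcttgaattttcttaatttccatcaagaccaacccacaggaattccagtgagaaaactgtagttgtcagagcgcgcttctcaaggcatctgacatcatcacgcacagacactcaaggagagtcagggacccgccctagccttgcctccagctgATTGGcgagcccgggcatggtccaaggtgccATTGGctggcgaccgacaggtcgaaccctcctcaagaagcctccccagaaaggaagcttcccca
Msmo1: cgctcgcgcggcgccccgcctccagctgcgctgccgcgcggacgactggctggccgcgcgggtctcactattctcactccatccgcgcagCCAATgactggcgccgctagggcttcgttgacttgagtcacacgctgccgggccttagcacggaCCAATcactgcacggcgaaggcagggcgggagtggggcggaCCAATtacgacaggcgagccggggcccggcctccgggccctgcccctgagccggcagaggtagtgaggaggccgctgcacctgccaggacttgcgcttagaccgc
Hmgcs1: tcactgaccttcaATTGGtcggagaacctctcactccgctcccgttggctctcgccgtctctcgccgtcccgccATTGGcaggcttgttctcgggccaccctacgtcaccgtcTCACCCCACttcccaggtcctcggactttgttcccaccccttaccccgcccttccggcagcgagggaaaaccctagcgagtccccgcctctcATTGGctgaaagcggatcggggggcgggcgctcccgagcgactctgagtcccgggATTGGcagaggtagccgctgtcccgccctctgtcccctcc
Abca1: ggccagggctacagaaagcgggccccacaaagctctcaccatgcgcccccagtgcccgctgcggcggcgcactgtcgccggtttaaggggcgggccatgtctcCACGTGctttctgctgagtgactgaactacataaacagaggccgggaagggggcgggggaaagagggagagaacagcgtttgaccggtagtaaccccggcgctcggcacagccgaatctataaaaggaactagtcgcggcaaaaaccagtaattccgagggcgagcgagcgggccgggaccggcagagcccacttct

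A promoter was found in the RefSeq table for 24 of the 29 genes. A CCAAT box lay in at least 1 promoter of 20 of the 24 (83.3%), and in 41.1% of all 27025 genes of the table. Counted by promoter window, it was in 60% of the 35 windows of these genes and in 37.4% of all 32851. Among the sequences shown, Hmgcs1 holds 4 CCAAT boxes and Msmo1 3, and Idi1 has both of its own close before the start site, 45 and 14 bases upstream. The E-box occurred in 6 of 24 (25%), Insig1 and Abca1 among them, and in 8.09% of all genes (7.15% of all windows). The sterol regulatory element in these exact letters was found only in Hmgcs1 among the 24, at 137 bases before the start site, and in 1.44% of all genes (1.24% of all windows). TGGGC, described for Bcl11b, was in 16 of 24 (66.7%) and in 59.8% of all genes (56.9% of all windows). The sterol element can share letters with the E-box, and the CCAAT box with TGGGC. These matches describe the letters of the windows and were not tested for binding. Sites of LXR, which switches on Abca1 and Abcg1, were not searched for. Fdps, Fdft1, Sqle, Abcg1 and Stard4 were without an entry.

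Bcl11b itself had log2 levels of 10.56, 10.40 and 10.30 in controls and 9.03, 8.68 and 8.82 in mutants, with a change of -1.58 (limma, adjusted p = 2.56e-05, SE 0.099). The sources used here do not say whether its probe set covers the part removed by Cre. The first principal component separated the 3 mutant from the 3 control arrays with 70.4% of the variance, and on the second control 1 (16.3) and control 3 (-11.8) lay at opposite ends, with the other 4 arrays between -2.7 and 1.85. Medians of the 6 arrays ranged from 6.29 to 6.36 (log2). Among the cholesterol genes the lowest means were those of Tm7sf2 (6.69) and Stard4 (6.84), close to these medians, with no measure of whether they exceed background.

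In mutant granule cells 9 of the 28 cholesterol genes changed, 6 of them lower and 3 higher. The sterol sensors Insig1 and Insig2, the transcription factor Srebf2 and the enzymes Idi1, Fdft1 and Msmo1 fell, while the enzyme Lss, the receptor Vldlr and the exporter Abca1 rose. Changes were moderate, from -0.68 for Insig1 to 1.07 for Abca1 on the log2 scale, and Abca1 alone changed by a fold of more than 2. The share of changed genes was 32.1%, beside 15.2% of all 19938 genes tested. All measured cholesterol genes but Tm7sf2 and Stard4 lay above the median gene level of 7.06. With only genes at or above that level fitted, 10 cholesterol genes and 2749 genes in all changed. The 15.2% is therefore lower than the share among genes of such a level, and the 32.1% is not read as a raised share. Of all genes 9.23% were higher and 5.93% were lower. Mutant and control arrays did not overlap for 15 of the 28 genes, 10 lower and 5 higher in mutants, and for 31.6% of all genes. The median change over the 28 genes was -0.14, and -0.003 over all genes. Only Insig1 and Abca1 passed the methods' test with adjustment (adjusted p = 0.0189 and 0.0367), which estimates the spread of each gene from its own 6 arrays. That is 2 of 28 cholesterol genes, beside 1141 of all 19938 genes. With quantile normalization run again on the deposited values, 13 genes changed, 10 of them lower and 3 higher. Leaving out control 2, mutant 1 or mutant 3 brought the 9 to 5 each time, mutant 2 to 6, and leaving out control 1 raised them to 13. Without control 3 there were 10, of which 7 were among the 9.

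**Figure D1:**
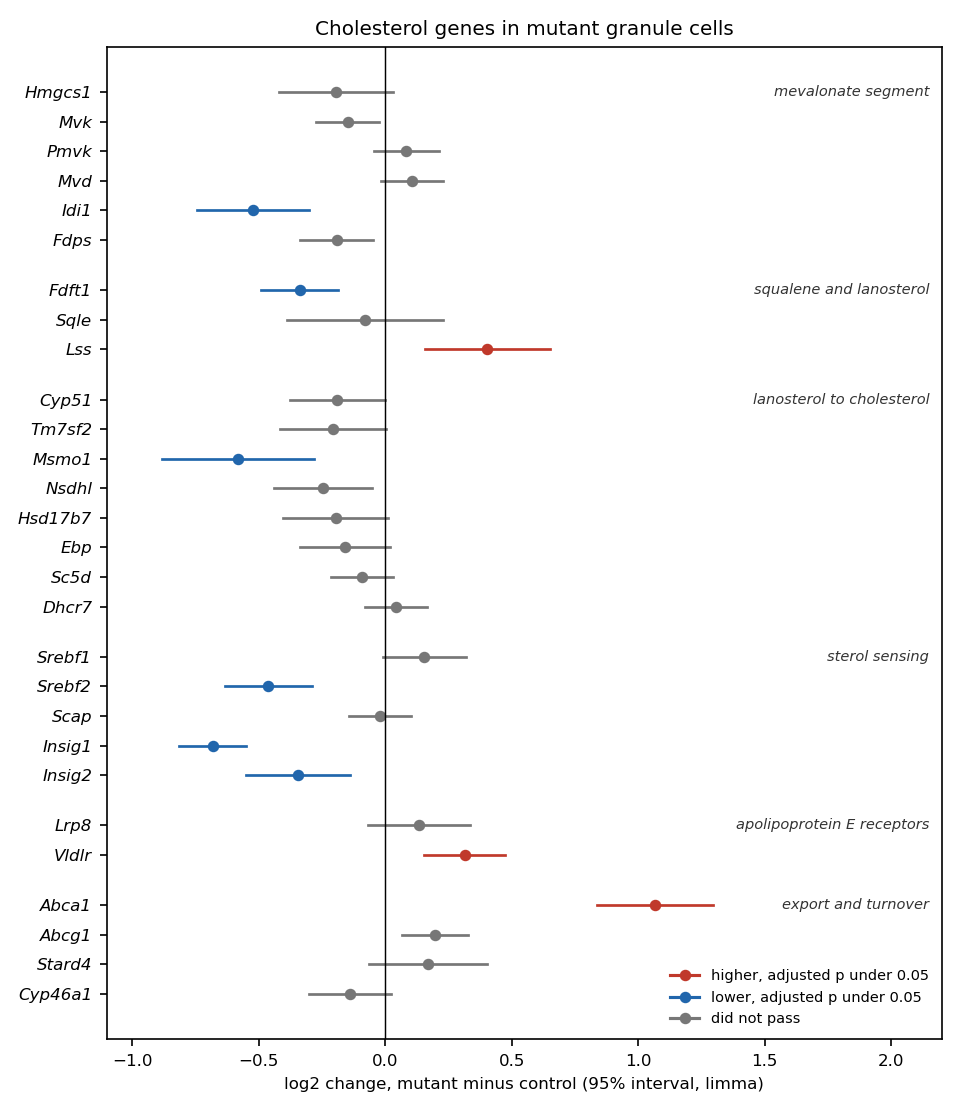
Log2 change of each measured cholesterol gene in mutant against control granule cells on the horizontal axis, with 95% intervals from limma (n = 3 arrays per group) and genes in the order of the pathway from top to bottom. Blue genes were lower and red genes higher, and the interval of Abca1 lies to the right of all others, with a lower bound of 0.84.

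Among the genes that sense sterols, Insig1, Srebf2 and Insig2 were lower and Scap and Srebf1 did not pass the test. Insig1, which retains Scap in the endoplasmic reticulum and is itself a strong Srebf target, had log2 levels of 9.99, 10.08 and 10.05 in controls and 9.41, 9.38 and 9.28 in mutants. All mutants lay well below all controls, and the spread within each group was small (SD 0.045 and 0.068, n = 3 each). Insig1 fell by 0.68 in log2 units (standard error 0.058, adjusted p = 1.20e-04 from limma), that is 1.604-fold. It passed under all 16 alternative settings, with changes between -0.72 and -0.64.

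Srebf2, the master regulator of the synthesis genes, stood at 10.78, 10.70 and 10.49 in controls and at 10.18, 10.22 and 10.20 in mutants. The mutants lay within a few hundredths of each other, below the lowest control. Srebf2 fell by 0.46 (standard error 0.076, adjusted p = 0.00389 from limma), 1.38-fold. Insig2, which does the work of Insig1 but is controlled differently, had levels of 9.84, 10.04 and 10.22 in controls and 9.68, 9.64 and 9.74 in mutants. Its groups did not overlap, but control 1 lay close to mutant 3. Insig2 fell by 0.34 (standard error 0.090, adjusted p = 0.0340 from limma), but it lost the call without control 2, control 3 or any 1 mutant, with adjusted p between 0.0683 and 0.122.

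Srebf1, the relative of Srebf2 that mainly serves fatty acid synthesis, had levels of 7.62, 7.68 and 7.77 in controls and 7.97, 7.83 and 7.74 in mutants. The groups overlapped, with a change of 0.16 whose 95% interval was -0.009 to 0.32. Scap, the escort of both factors, lay between 10.12 and 10.21 in controls and between 10.12 and 10.19 in mutants. Its change of -0.02 had an interval of -0.14 to 0.10, so a change the size of that of Srebf2 lies outside it.

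**Figure D2:**
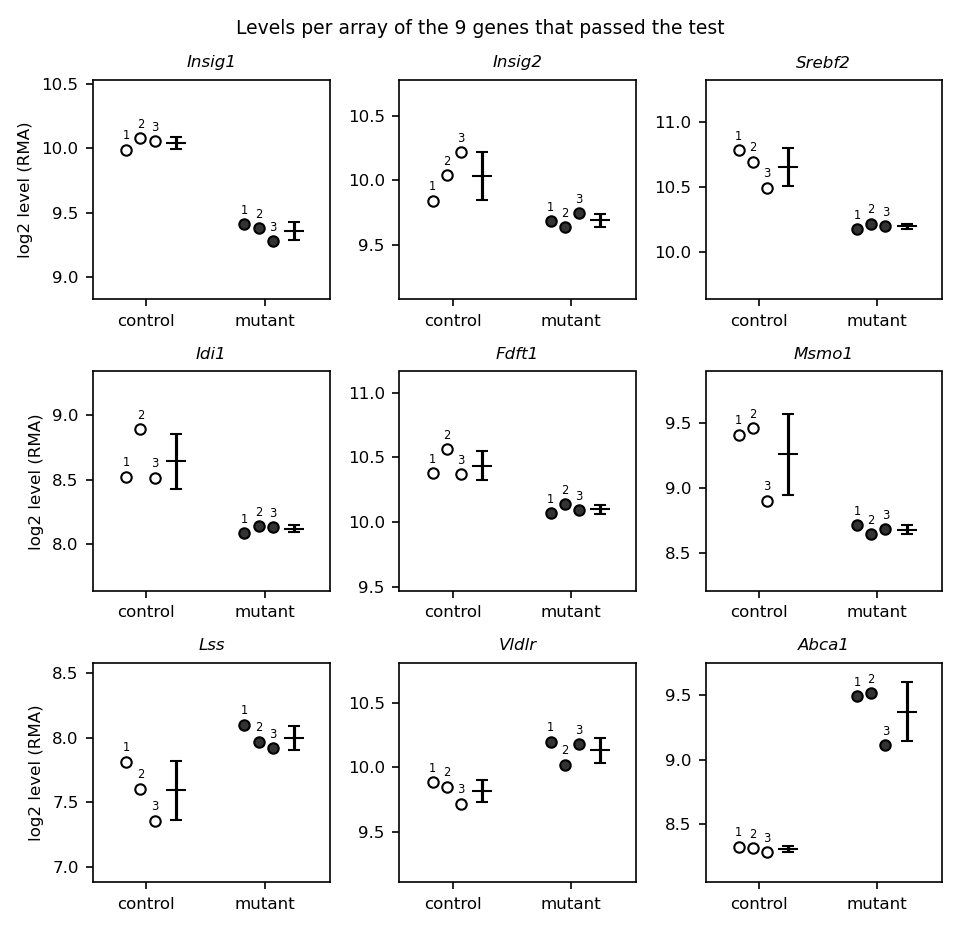
Log2 level of the 9 cholesterol genes that changed, in each array, on the vertical axis, with a common span for all panels. Open circles are controls, filled circles mutants, small digits the replicate numbers, and bars the mean with SD (n = 3 per group). In each of the 9 panels the groups do not overlap, with the widest gap for Abca1 and controls that lie farther apart than mutants for Msmo1 (SD 0.31 and 0.036).

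Of the 17 synthesis enzymes measured, 3 were lower, 1 was higher and 13 did not pass the test. The changed share was 23.5%, beside 15.2% of all genes, which include genes of lower level, among which fewer changed. The 23.5% is therefore not read as a raised share. Their median change was -0.19, and 13 of the 17 had a negative change, as had 10163 of all 19938 genes. Within the segments the share was 16.7% of the mevalonate genes and 12.5% of those from lanosterol to cholesterol. Both were near that of all genes, whatever their level. In the mevalonate segment, which makes the isoprene units, Idi1 was the 1 gene of 6 that changed. Idi1, the isomerase of the isoprene unit, had levels of 8.52, 8.89 and 8.52 in controls and 8.09, 8.14 and 8.13 in mutants. Control 2 was highest, and every mutant lay below every control. Idi1 fell by 0.52 (standard error 0.097, adjusted p = 0.00721 from limma), 1.44-fold. A second Idi1 probe set had a change of -0.43 (adjusted p = 0.00635 from limma over all probe sets).

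Hmgcs1, the synthase of HMG-CoA near the start of the pathway, had levels of 10.06, 9.87 and 9.64 in controls and 9.73, 9.58 and 9.67 in mutants. Control 3 lay among the mutants, and the change of -0.19 did not pass (adjusted p = 0.256 from limma). Without control 3 it was -0.30 and passed (adjusted p = 0.0407 from limma), and without control 1 it was -0.09 and did not pass. Hmgcs1 passed in 1 of the 16 settings. The mevalonate kinase Mvk and the farnesyl diphosphate synthase Fdps had all mutants below all controls, at changes of -0.15 and -0.19, but did not pass (adjusted p = 0.116 and 0.0808 from limma). For Mvd, the mevalonate diphosphate decarboxylase, all mutants lay above all controls with a change of 0.11 that did not pass (adjusted p = 0.250 from limma). Pmvk, the kinase between Mvk and Mvd, had a change of 0.08 with an interval of -0.045 to 0.21.

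The next 3 enzymes join farnesyl units to squalene and fold it into lanosterol, and they did not move together. Fdft1, the squalene synthase, had levels of 10.38, 10.57 and 10.37 in controls and 10.07, 10.14 and 10.09 in mutants. No mutant reached the lowest control. Fdft1 fell by 0.34 (standard error 0.066, adjusted p = 0.00942 from limma), 1.26-fold. A second Fdft1 probe set had a change of -0.32 and did not pass over all probe sets (adjusted p = 0.0723 from limma).

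Sqle, the squalene epoxidase and a main control point, had levels of 9.10, 8.85 and 8.45 in controls and 8.71, 8.72 and 8.73 in mutants. The mutants lay in the middle of a wide range of controls, and the interval of the change was -0.39 to 0.23. Without control 1 the change was 0.07, and without control 3 it was -0.25, neither of which passed. Lss, the lanosterol synthase, had levels of 7.81, 7.60 and 7.36 in controls and 8.10, 7.97 and 7.92 in mutants. Its groups did not overlap, in the direction opposite to Fdft1. Lss rose by 0.40 (standard error 0.11, adjusted p = 0.0368 from limma), 1.32-fold. It lost the call without control 2, control 3 or any 1 mutant (adjusted p between 0.0655 and 0.142).

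Of the 8 enzymes from lanosterol to cholesterol, Msmo1 was lower and 7 did not pass the test. Msmo1, the sterol-C4-methyl oxidase, had levels of 9.41, 9.47 and 8.90 in controls and 8.71, 8.64 and 8.68 in mutants. Controls 1 and 2 were far above the mutants, and control 3 was just above them. Msmo1 fell by 0.58 (standard error 0.13, adjusted p = 0.0183 from limma), 1.497-fold, and by 0.76 without control 3. The call was lost without control 2 or any 1 mutant (adjusted p between 0.0615 and 0.0729).

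The other 7 of this segment had changes between -0.25 and 0.04. Nsdhl, which acts with Msmo1 on the methyl groups at C4, and Hsd17b7, the reductase of that step, had changes of -0.25 and -0.20, with control 3 among the mutants. Without control 3 both passed (adjusted p = 0.00804 and 0.0258 from limma). Of the 16 settings, Nsdhl passed in 3 and Hsd17b7 in 2. The lanosterol demethylase Cyp51 and the desaturase Sc5d had all mutants below all controls, at changes of -0.19 and -0.09 that did not pass (adjusted p = 0.180 and 0.325 from limma). The sterol reductase Tm7sf2 had a change of -0.21 and the isomerase Ebp of -0.16, and for both genes the mutants overlapped the controls. Dhcr7, which carries out the final reduction to cholesterol, lay at 8.53, 8.54 and 8.47 in controls and 8.50, 8.57 and 8.60 in mutants, with an interval of -0.08 to 0.17.

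Control 3 had lower levels than controls 1 and 2 for many of the enzymes. Measured from the mean of each gene over the 6 arrays, the median level of the 17 enzymes was 0.11, 0.09 and -0.05 in controls 1, 2 and 3. In mutants 1, 2 and 3 it was -0.11, -0.08 and -0.06, so control 3 lay next to mutant 3. Control 3 was the lowest control for 12 of the 17 enzymes (70.6%), and for 36.7% of all genes, and the lowest was control 1 or 2 for the other 5. Over all 28 cholesterol genes the share was 71.4%. Controls had the larger SD for 12 of the 17 (70.6%), a share near that of all genes (63.2%). The size of the spread differed more. The median SD of the 17 enzymes was 0.159 in controls and 0.0546 in mutants, beside 0.0815 and 0.0613 over all genes. The summed signal of the 17 enzymes, on the linear scale, was 8997, 9105 and 8034 in controls and 7553, 7537 and 7724 in mutants, without overlap. Without control 1 the median change was -0.10, with 5 enzymes lower and 1 higher. Without control 3 it was -0.22, with 6 enzymes lower and 0 higher (Lss, the enzyme that was higher with all arrays, had an adjusted p of 0.0655). With control 2 or any 1 mutant left out, only Idi1 and Fdft1 of the 17 enzymes passed, both lower. With the methods' test after adjustment none of the 17 passed.

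**Figure D3:**
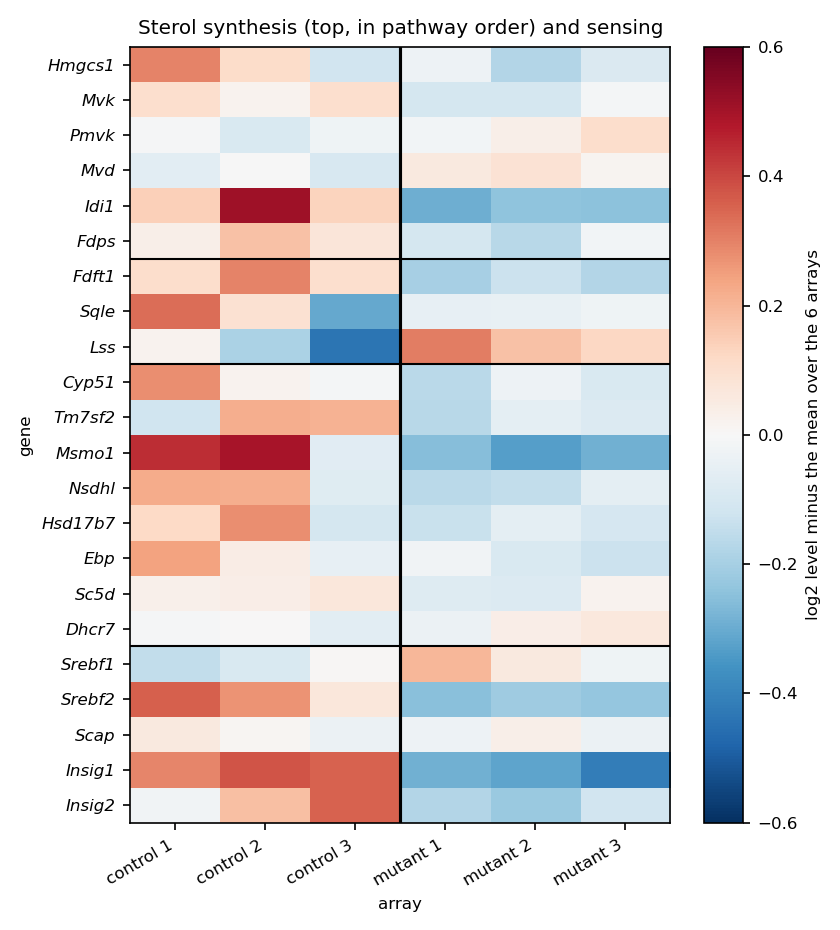
Log2 level of each synthesis enzyme and sterol sensing gene minus its mean over the 6 arrays, as colour (blue low, red high), with arrays on the horizontal axis and genes in pathway order on the vertical axis. Controls 1 and 2 are red for most enzymes, control 3 is mixed, and Insig1 and Srebf2 at the bottom are red in all controls and blue in all mutants.

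Both apolipoprotein E receptors, which also receive the positional signal reelin, had higher means in mutants, and Vldlr passed the test. Vldlr had levels of 9.89, 9.85 and 9.72 in controls and 10.20, 10.02 and 10.18 in mutants. All mutants lay above all controls. Vldlr rose by 0.32 (standard error 0.070, adjusted p = 0.0173 from limma), 1.24-fold, but lost the call without control 2, mutant 1 or mutant 3 (adjusted p = 0.0511, 0.0784 and 0.0770). Lrp8, the receptor known as ApoER2, had levels of 10.38, 10.12 and 10.05 in controls and 10.29, 10.40 and 10.25 in mutants. Control 1 lay among the mutants, and the change of 0.13 had an interval of -0.07 to 0.33. Without control 1 it was 0.23 and passed (adjusted p = 0.0329 from limma). Lrp8 passed in 1 of the 16 settings. Whether the 2 receptors differ in their change was not tested.

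Of 10 genes listed with reelin signaling, Dab2ip, a Ras GTPase-activating protein that binds Dab adaptors, was the 1 gene that changed. Dab2ip rose by 1.20 (standard error 0.073, adjusted p = 2.29e-05 from limma). Reelin itself (Reln) had a change of -0.006 and Dab1 of 0.10 (adjusted p = 0.983 and 0.376 from limma). Of the 10 genes 8 had a positive and 2 a negative change. Fyn, Crkl, Src and Rapgef1 had all mutants above all controls, at changes of 0.23, 0.195, 0.29 and 0.35. They did not pass (adjusted p from 0.0518 to 0.0837, from limma).

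The exporter Abca1 had the largest change of the cholesterol genes. Abca1, which hands cholesterol and phospholipid to apolipoproteins, had levels of 8.33, 8.32 and 8.28 in controls and 9.49, 9.52 and 9.11 in mutants. The controls lay within 0.05 of each other, and the lowest mutant was still far above them. Abca1 rose by 1.07 (standard error 0.10, adjusted p = 2.13e-04 from limma), 2.09-fold. It passed under all 16 alternative settings, with changes between 0.99 and 1.20.

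Abcg1, which loads cholesterol on lipoprotein particles, had levels of 10.41, 10.45 and 10.32 in controls and 10.61, 10.62 and 10.54 in mutants. Every mutant lay above every control, but the change of 0.20 missed the threshold (standard error 0.057, adjusted p = 0.0529 from limma). It passed in 5 of the 16 settings. Cyp46a1, the neuronal enzyme that makes 24S-hydroxycholesterol, had levels of 11.06, 10.92 and 10.83 in controls and 10.83, 10.72 and 10.84 in mutants. The groups overlapped, with an interval of -0.30 to 0.02. Stard4, a carrier of cholesterol between membranes, had a change of 0.17 with an interval of -0.06 to 0.40, and its controls were spread from 6.50 to 6.93.

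Further genes of the pathway came from 8 lists written from general knowledge, with 84 of 96 genes measured and the other 12 not analysed here. Of the 84, 15 were higher and 5 were lower (23.8%, beside 15.2% of all genes, whatever their level). Fatty acid synthesis, the branch served by Srebf1, had 5 of 12 genes higher and 1 lower, with 7 positive and 5 negative changes. Fasn, Acly, Scd1 and Acss2 had changes of -0.05, -0.1, -0.28 and -0.04 that did not pass. The elongase Elovl6 had levels of 10.17, 9.86 and 9.65 in controls and 10.88, 10.69 and 10.90 in mutants, and rose by 0.93 (adjusted p = 0.00121 from limma). Me1, the malic enzyme that supplies NADPH, rose by 0.78 and the desaturase Fads1 by 0.47, whereas Thrsp, a regulator of lipid synthesis, fell by 0.36 (adjusted p from 4.35e-04 to 0.00763, from limma). The median change of this list was 0.17, and that of the 17 sterol enzymes was -0.19. The difference between these lists was not tested.

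Among 19 genes of lipoprotein uptake and transport within the cell, 4 were higher and 1 was lower. Lrp5, a receptor of the same family as Lrp8 that serves Wnt signaling, rose by 0.58 from control levels of 6.82 to 6.93. Gramd1b and Gramd1c, which move cholesterol from the plasma membrane to the endoplasmic reticulum, rose by 0.42 and 0.30, and Scarb1, a receptor for high-density lipoprotein, fell by 0.29 (adjusted p from 2.21e-04 to 0.0267 for these 4 genes, from limma). Control levels of Gramd1c, with a mean of 6.14, lay under the array medians. Of 15 genes of efflux, LXR and apolipoproteins, Abcg4 and Rxrg were higher and 13 did not pass. Abcg4, a neuronal relative of Abcg1, had levels of 9.72, 9.59 and 9.46 in controls and 10.20, 10.24 and 10.24 in mutants, a change of 0.64 (adjusted p = 5.14e-04 from limma). Rxrg, a retinoid X receptor that pairs with LXR, rose by 1.04 (adjusted p = 2.81e-04 from limma), with control levels of 4.89 to 5.31 under the array medians, where the size of a change is least certain.

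Enzymes of oxysterols and bile acids changed in both directions, with 2 of 8 higher and 2 lower. Ephx1, the microsomal epoxide hydrolase, rose from 6.60, 6.69 and 6.61 to 8.43, 8.27 and 8.38, a log2 change of 1.73 (adjusted p = 1.11e-06 from limma). The oxysterol hydroxylase Cyp7b1 fell by 0.44 and the sterol sulfotransferase Sult2b1 by 0.35, while Hsd3b7, an enzyme of bile acid synthesis, rose by 0.37 (adjusted p from 0.00200 to 0.0270, from limma). Controls of Ephx1 and Hsd3b7 (6.35 to 6.47) lay close to the array medians. Of 7 further genes of Srebf processing, Fbxw7, the ubiquitin ligase component that marks nuclear Srebf for breakdown, fell by 0.52 (adjusted p = 0.00127 from limma). Of 4 further synthesis genes Cyb5r3, a reductase that feeds electrons to sterol oxidation, rose by 0.47 (adjusted p = 0.0297 from limma). None of 9 genes of the isoprenoid branch passed with limma or with the methods' test after adjustment. An unadjusted p under 0.05 in limma was found for 4 of the 9 (3 higher, 1 lower), and for 5419 of all 19938 genes.

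**Figure D4:**
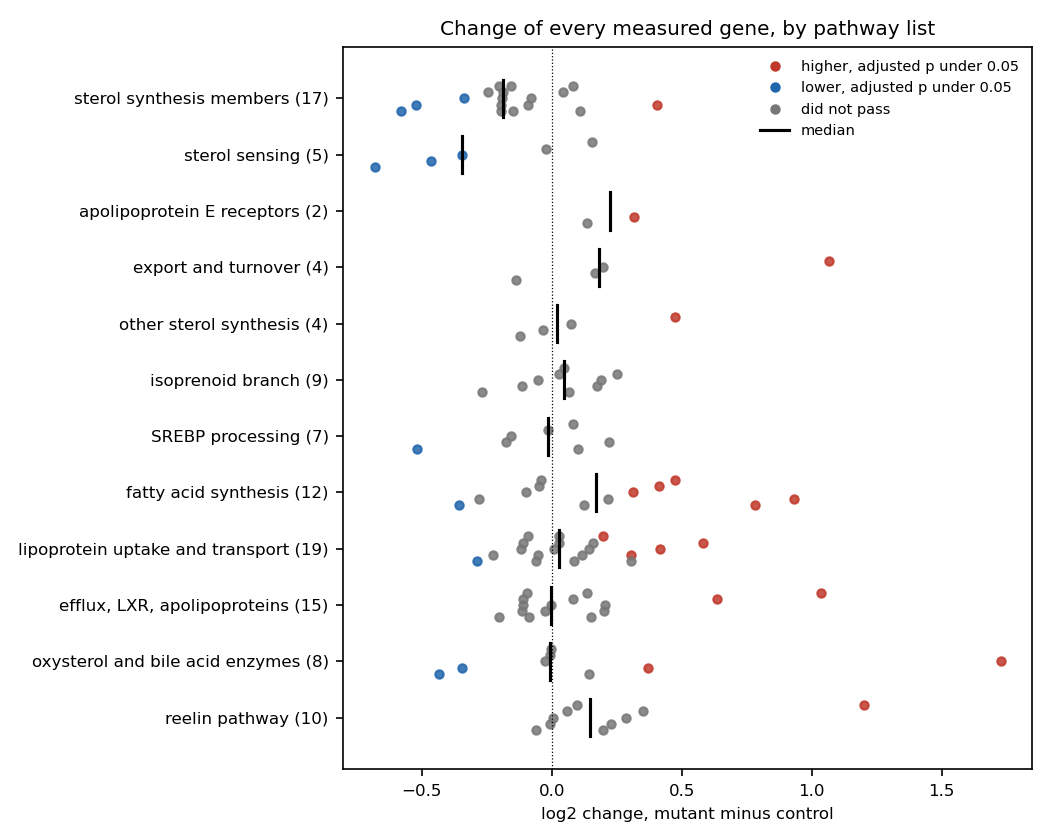
Log2 change of every measured gene on the horizontal axis, 1 dot per gene, in rows for the cholesterol genes (top 4) and 8 further pathway lists, with the number of genes in brackets and the median as a black line. Red and blue dots passed the test. The median lies left of 0 for synthesis enzymes (-0.19) and sterol sensing genes (-0.34) and right of 0 for fatty acid synthesis (0.17).

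The captured layer was checked against markers of granule cells and of other cells, since glia and neurons make and move cholesterol in different ways. Prox1, the defining factor of granule cells, lay between 11.45 and 11.81 in controls and 11.57 and 11.65 in mutants and did not pass the test (change -0.05, adjusted p = 0.788 from limma). Of 15 granule cell markers 8 were lower and 1 was higher, and C1ql2, Stxbp6 and Tdo2 had changes of -3.29, -0.69 and 1.13 (C1ql2 is a gene that the study followed up). Their summed linear signal was 39210 to 39890 in controls and 27400 to 28400 in mutants. In these bulk samples, fewer cells of a type and less RNA per cell cannot be told apart.

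Astrocytes, the main source of brain cholesterol, had 2 of 14 markers higher (14.3%, near the 15.2% of all genes), Slc1a2 with 0.33 and Gfap with 0.54, and the defining markers Aqp4 and Aldoc had changes of 0.03 and 0.08 that did not pass. Of the 14 markers 11 had a positive and 3 a negative change, with a median of 0.08. Their summed signal was 13150 to 14790 in controls and 15030 to 16320 in mutants, higher mostly through Slc1a2, the brightest of them. Oligodendrocytes, which make large amounts of cholesterol for myelin, had 2 of 13 markers lower (15.4%, also near that of all genes), Ermn with -1.71 and Ugt8a with -0.34. Mbp had a change of -0.08 that did not pass, and 4 of the 13 had positive changes that did not pass. Their summed signal was 3565 to 3720 in controls and 2980 to 3454 in mutants. Endothelial cells and pericytes had 2 of 10 markers higher, Pdgfrb with 0.40 and Flt1 with 0.44, and a summed signal of 986 to 1095 against 1096 to 1317. Of 13 microglia markers 1 was lower, Tmem119 with -0.32, although all 13 had a negative change, and their summed signal overlapped between groups (1492 to 2056 in controls, 1433 to 1613 in mutants).

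Of 9 markers of inhibitory neurons, which share the layer border, 2 were lower, Npy with -0.58 and Gad1 with -0.27, while 5 had positive changes that did not pass and the median was 0.05. The summed signal, 4375 to 5253 in controls and 4079 to 4290 in mutants, was lower mainly through Npy and Gad1. For pyramidal and mossy cells 3 of 11 were higher and 2 lower, among them Bok with 1.90, Fibcd1 with -0.94 and Grik4 with 0.58, and the summed signal was 2839 to 3058 in controls and 3986 to 4069 in mutants. The median change was -0.05 with 6 of 11 negative, and the higher sum came from the 3 genes that rose, mostly from Bok. Of 8 genes of immature neurons and dividing cells 3 were higher, Dcx with 1.07, Neurod1 with 0.34 and Sox11 with 0.46. The summed signal was 2066 to 2293 in controls and 2862 to 3077 in mutants, a difference that came from these 3 genes. The median change was 0.07, and the markers of dividing cells Top2a and Mki67 had changes of -0.17 and 0.04 that did not pass. No marker was listed at 0, as the values are never 0 on this scale. The part of these other cells in the changes of the cholesterol genes was not tested.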

How the data were processed

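Each of the 3 control and 3 mutant samples of laser-captured DG granule cell layer was measured on 1 Affymetrix array. Per the labels (submitters' processing notes), the authors summarized the arrays by RMA with Affymetrix Expression Console into deposited log2 values. RMA corrects the background, aligns the distributions of the arrays and returns a single value per probe set. A change common to all genes is thereby removed. Versions, settings and annotation build: not given in the sources used here. The study names BRB-ArrayTools for its own transcriptome analysis.

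Of 35556 probe sets, 21789 were paired with 1 gene in the platform annotation, 1621 with several, and 12146 were not listed. Where a gene had several probe sets, the brightest by its 6-array mean stood for it, with no filter on level, which left 19938 genes. The mutant effect was fitted in limma 3.58.1 (R 4.3.3; lmFit and eBayes), p-values were adjusted over the whole table after Benjamini and Hochberg, and 0.05 was the threshold. An exact permutation test of 3 against 3 arrays cannot go below 0.1. The number of arrays limits the precision.

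The genes and lists were chosen with earlier results of these data known, so counts over them are descriptions without a test. All 29 genes are named, with up to 4 changed genes of each further pathway list and up to 3 of each marker list by smallest p. Mbp, Aqp4, Aldoc, Top2a, Mki67, Prox1, Reln and Dab1 were added for their role after their values were seen. Fasn, Acly, Scd1, Acss2, Fyn, Crkl, Src and Rapgef1, also added after their values were seen, are named as genes that did not pass. Alternatives were the methods' unpaired two-tailed test, a trend with robust prior, array weights, a threshold of 0.01, a level filter, the mean of probe sets, other scalings, the replicate number as a block and leaving out each array. Same-numbered arrays deviated together with correlations of 0.164, -0.0328 and 0.118, and no source says what a number marks, so arrays were not treated as pairs. No batch is given, so none was tested.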

Additional observations from a re-analysis of the deposited data

How the results depend on the processing

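All 28 cholesterol genes kept the direction of their change under every alternative, except Sqle, Dhcr7 and Scap, none of which passed in any setting (the level filter left out Tm7sf2 and Stard4). The count of 9 changed cholesterol genes (3 higher, 6 lower) ranged from 5 to 13 when 1 array was left out, with 1 to 5 higher, and that of all genes (3023) from 1886 to 4487. The 13 came without control 1. The median change of the synthesis enzymes ranged from -0.22 without control 3 to -0.10 without control 1. With the methods' test after adjustment 2 cholesterol genes passed (1 higher, 1 lower) and 1141 genes in all. At an unadjusted p under 0.05 of that test 13 cholesterol genes passed (5 higher, 8 lower), and 4545 genes in all. Array weights gave 14 cholesterol genes (10 lower) and 5527 genes in all. A threshold of 0.01 left 5 cholesterol genes (1 higher) and 1554 genes. Quantile normalization run again gave 10 lower cholesterol genes. With the replicate block the count was 9, the same 9 genes, and 3176 genes changed in all, and for 4 of 6 arrays the closest deviations were those of the same number. The cause of these shifts was not tested. No array carries a measure of detection here, so genes near the array medians (Tm7sf2, Stard4) cannot be told from background.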
